A study of Mus musculus with 6 samples.

Results

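The 10 genes of sebum lipid synthesis were followed in the lip: Awat1, Awat2, Far2, Scd1, Scd3, Elovl3, Soat1, Dgat2, Mgst1 and Acsm1, which are 10 of the 26814 genes with counts. They were chosen by name as genes of the sebaceous gland, and also on measured values, since Awat1 was picked as a gene with one of the lowest p-values among those lower in KO. Lip tissue came from 3 wild type (WT) mice and 3 knockout (KO) mice, all adult females on the C57BL/6J background, with 1 library per mouse. The KO mice carried the constitutive Gtf2ird1 knockout allele Gtf2ird1tm1Hrd in every cell, and no other treatment or allele is given for either group. Gtf2ird1 itself, which encodes a transcription factor of the TFII-I family, was higher in the libraries labelled KO, at 166, 162 and 144 CPM (gene counts scaled to library size with TMM factors) against 78.2, 70.2 and 70.7 CPM in WT. Counts of RNA do not show whether the protein was made. The paper reports that tail biopsies were taken to check the genotypes, and that GTF2IRD1 can regulate its own transcription. The cause of the higher counts was not tested. Every direction given here follows the labels, KO relative to WT.

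Sebaceous glands are the oil glands beside hair follicles. Their cells, the sebocytes, fill with lipid droplets and then burst to release sebum, which in the mouse is rich in wax esters, sterol esters and triglycerides. The pathway runs from fatty acids, which are lengthened by elongases and given a double bond by desaturases, to fatty alcohols made by fatty acyl-CoA reductases, and ends in acyltransferases that join a fatty acid to an alcohol, a sterol or a glycerol backbone. The whole lip was sequenced, so the same genes are also read from other cells: Dgat2 and Scd1 are active in adipocytes, and Elovl3 in hair follicles as well as in glands.

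The members include pairs of related genes that lie close together. Awat1 (chromosome X, 100572251 to 100578205, + strand, GRCm38) and Awat2 (X, 100402221 to 100442717, - strand) are 129.5 kb apart, with the related Dgat2l6 and the unrelated Igbp1 between them. Scd1 (chromosome 19, 44394455 to 44407879, - strand) and Scd3 (19, 44203269 to 44244016, + strand) are 150.4 kb apart, with Scd2 and Scd4 between them. The coding sequences of Awat1 and Awat2 (984 and 999 bases) were 68.1% identical where aligned, and no 100-base window of Awat2 was found in Awat1, a length equal to that of the reads. Scd1 and Scd3 (1065 and 1077 bases) were 91.5% identical, with a longest identical run of 185 bases, and 86 of 3449 windows of 100 bases in Scd3 were also in Scd1. To show how closely each pair can be told apart, the least alike stretch of 60 coding bases is printed for both pairs, from the transcripts of the GRCm38 annotation, with the bases that differ in capitals. The Awat stretches (coding bases 397 to 456 of Awat1 and 409 to 468 of Awat2) share 31 of 60 bases and the Scd stretches (295 to 354 of Scd1 and 307 to 366 of Scd3) share 42 of 60.
Awat1: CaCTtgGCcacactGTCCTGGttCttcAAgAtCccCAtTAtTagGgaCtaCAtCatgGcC
Awat2: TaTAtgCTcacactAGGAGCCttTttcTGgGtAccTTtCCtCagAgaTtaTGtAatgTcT
Scd1: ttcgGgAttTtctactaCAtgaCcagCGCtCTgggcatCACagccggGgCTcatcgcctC
Scd3: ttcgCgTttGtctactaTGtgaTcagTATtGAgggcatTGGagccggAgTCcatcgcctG

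Promoter sequences of RefSeq (GRCm38.p6, 250 bases before to 50 after a start) were matched for 7 of the 10 members: Awat1, Awat2, Far2, Scd3, Soat1, Mgst1 and Acsm1. Since the study removes a DNA-binding protein, the promoters of 2 members are printed, the member by which the group was picked, Awat1 (chrX:100571997-100572296, + strand) and the member that was higher in KO, Scd3 (chr19:44203038-44203337, + strand), with CCAAT, read on either strand, in capitals.
Awat1: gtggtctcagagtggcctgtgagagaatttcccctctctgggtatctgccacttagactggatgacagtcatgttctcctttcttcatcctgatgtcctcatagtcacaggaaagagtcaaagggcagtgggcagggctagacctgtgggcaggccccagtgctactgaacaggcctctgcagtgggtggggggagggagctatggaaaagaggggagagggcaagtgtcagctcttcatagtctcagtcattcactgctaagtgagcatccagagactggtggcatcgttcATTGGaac
Scd3: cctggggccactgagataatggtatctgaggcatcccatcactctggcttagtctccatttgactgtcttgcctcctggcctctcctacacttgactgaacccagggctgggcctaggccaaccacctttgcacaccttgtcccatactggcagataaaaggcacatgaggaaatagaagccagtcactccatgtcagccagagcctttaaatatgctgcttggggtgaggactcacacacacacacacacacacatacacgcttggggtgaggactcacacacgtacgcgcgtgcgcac
The letters GGATTA, the core of the site that GTF2IRD1 binds, were searched on both strands. They were in 0 of these 7 members' promoters, against 7.1% of the 32851 promoters in the table. With only 7 members, a motif of this share may well be missing from all, so nothing is read from the 0. CCAAT was in 4 of the 7 (Awat1, Awat2, Soat1 and Acsm1) and in 37.4% of all promoters. In Awat1 its only match lies after the start, at position 43. The 7 members have 9 promoter windows, and a member was counted for a motif in any of its windows. The shares of all promoters are per single window, so the 2 units differ for every motif here. AGGTCA, a nuclear receptor site, was in Acsm1 alone of the 7, and in 16.3% of all. TATAAA (13.6% of all) and CACGTG (7.2% of all) were in none of the 7, from which nothing is read either. None of these 5 motifs contains another.

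Wax synthesis held the member by which the group was picked. Far2, a reductase that makes fatty alcohols from fatty acyl-CoA (chromosome 6, 148047259 to 148182758), gave 252, 419 and 373 CPM in WT and 312, 325 and 344 CPM in KO. The groups overlapped, and the log2 fold change of KO against WT was -0.09 (standard error 0.19). Awat1, a wax alcohol acyltransferase that joins such an alcohol to a fatty acid, gave 223, 267 and 295 CPM in WT and 121, 115 and 131 CPM in KO. All 3 KO libraries lay below all 3 WT libraries, with a mean 53.1% lower and a log2 fold change of -1.09 (standard error 0.15). Awat2, the second wax alcohol acyltransferase, gave 45.3, 27.0 and 35.3 CPM in WT and 22.0, 19.6 and 29 CPM in KO. Here KO3 was above WT2, so the groups overlapped, and the log2 fold change was -0.61 (standard error 0.23). As these are whole-tissue libraries, fewer sebocytes and less RNA per sebocyte cannot be told apart in any of these values.

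**Figure D1:**
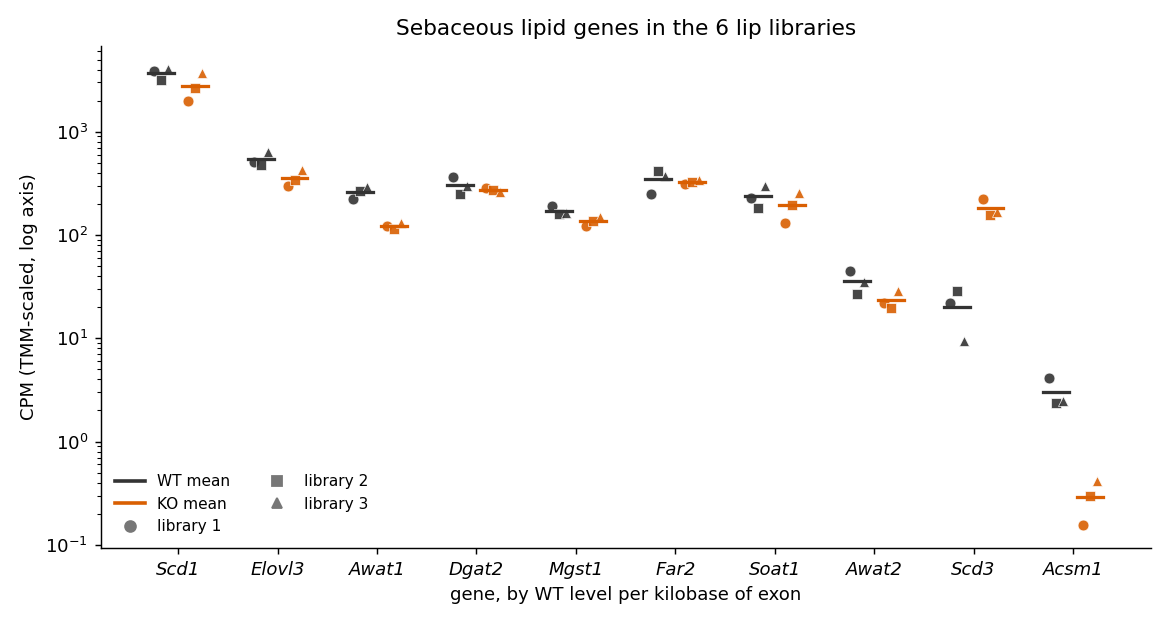
CPM of the 10 members in each of the 6 libraries (TMM-scaled, log axis); each symbol is a library, black for WT and orange for KO, and each bar is the mean of 3 libraries. Awat1, Elovl3, Mgst1 and Acsm1 have all KO libraries below all WT libraries, Scd3 has them above, and Far2, Dgat2, Soat1, Scd1 and Awat2 overlap.

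The 2 desaturases gave opposite signs. Scd1, the main stearoyl-CoA desaturase of the sebaceous gland, whose loss leaves mice with poorly formed glands, gave 3867, 3162 and 4075 CPM in WT and 1987, 2670 and 3691 CPM in KO. The library KO3 lay within the WT range, and the log2 fold change was -0.41 (standard error 0.26). Scd3, a relative of Scd1 found mainly in skin, gave 21.8, 29 and 9.31 CPM in WT and 223, 157 and 167 CPM in KO. Every KO library was above every WT library, with a mean 9.11 times that of WT and a log2 fold change of 3.19 (standard error 0.39). The ratio of Scd1 to Scd3 counts was 177, 109 and 438 in the WT libraries and 8.89, 17 and 22 in the KO libraries. Among the WT libraries, WT3 was the highest in Scd1 and the lowest in Scd3. Some windows of Scd3 are shared with Scd1, and the paper reports that only uniquely mapped reads were counted. Reads from shared windows may therefore be missing from both genes, and how many were was not tested.

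Per kilobase of exon, the 4 desaturases summed to 848 ± 99.9 CPM in WT and 729 ± 175 CPM in KO (SD, n = 3 each). Scd3 made up 0.696% ± 0.414 of that sum in WT and 7.51% ± 3.16 in KO, while Scd1 made up 89.1% ± 1.39 and 77.2% ± 5.43. Scd2, which is widely expressed, held 9.83% ± 0.964 and 15.1% ± 2.57. In the wax cluster, Awat1, Awat2 and Dgat2l6 summed to 218 ± 25.7 CPM per kilobase in WT and 108 ± 6.57 in KO. Awat1 held 86.1% ± 2.12 of that sum in WT and 81.8% ± 2.33 in KO, so the lower sum was carried mostly by Awat1. These sums and shares contain members and are a description with no test.

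**Figure D2:**
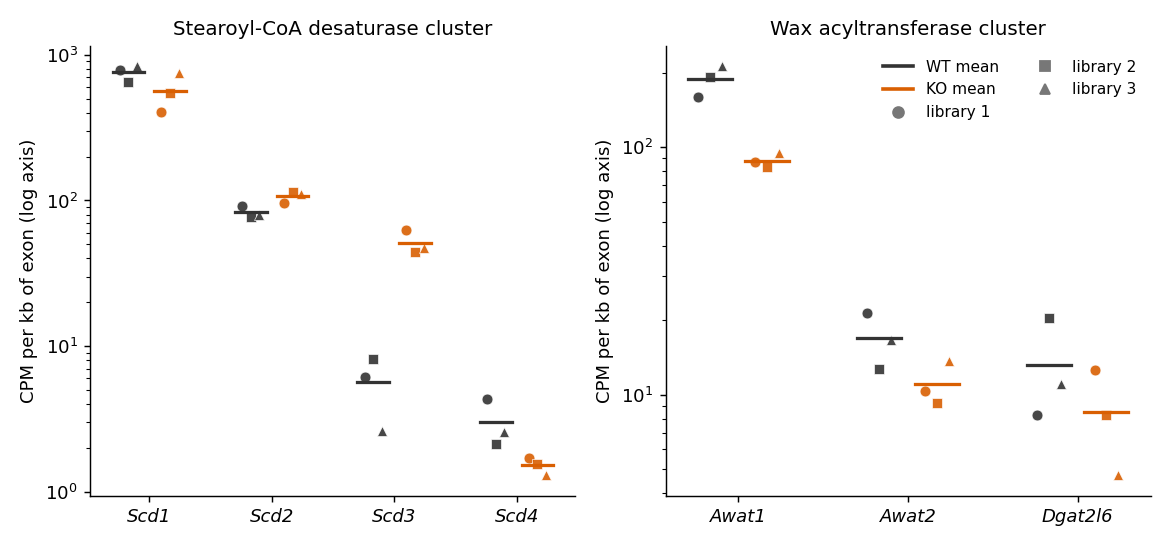
CPM per kilobase of exon (log axis) of the stearoyl-CoA desaturase genes (left) and of the wax acyltransferase genes (right) in the 6 libraries; symbols are libraries and bars are means of 3. Scd3 is the gene of the left panel whose KO libraries stand far above WT. Scd2 also lies above WT and Scd4 below it without overlap. Awat1 is the gene of the right panel whose groups do not overlap.

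Elovl3, an elongase of very long chain fatty acids in hair follicles and glands (chromosome 19, 46131897 to 46135694), gave 508, 477 and 636 CPM in WT and 299.8, 341 and 422 CPM in KO. The 3 KO libraries lay below the 3 WT libraries, with a log2 fold change of -0.61 (standard error 0.18). An exon of Pitx3 overlaps its exons on the opposite strand, as exons of Far2os2 and Ergic2 overlap those of Far2, and since the strand setting of the counting is not given, reads from such exons cannot be told apart. No exon of another gene overlapped the exons of the other 8 members in the annotation used. Pitx3 itself had 3.78 to 5.08 CPM in WT and 2.15 to 3.16 CPM in KO.

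The enzymes of storage lipids had smaller fold changes than Awat1, Scd3 and Acsm1, though Far2 of wax synthesis had a smaller one still. Soat1, which esterifies sterols (chromosome 1, 156424525 to 156474331), gave 229.7, 183 and 297 CPM in WT and 129.8, 194 and 258 CPM in KO. Its groups overlapped, with a log2 fold change of -0.29 (standard error 0.27). Dgat2, which carries out the last step of triglyceride synthesis (chromosome 7, 99153658 to 99182719), gave 362, 249 and 299.8 CPM in WT and 285, 272 and 263 CPM in KO. It overlapped too, with a log2 fold change of -0.15 (standard error 0.16).

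Mgst1 and Acsm1 stand beside the lipid pathway. Mgst1, a microsomal glutathione transferase that marks sebocytes (chromosome 6, 138140316 to 138156755), gave 189, 159.6 and 163 CPM in WT and 123, 138 and 148 CPM in KO. Its KO libraries lay below its WT libraries by a small margin, with a log2 fold change of -0.33 (standard error 0.14). Acsm1, a medium-chain acyl-CoA synthetase (chromosome 7, 119607026 to 119662515), gave 4.14, 2.38 and 2.47 CPM in WT and 0.154, 0.296 and 0.412 CPM in KO. These are 114, 56 and 55 counts against 3, 9 and 9 counts. The normalized level was 10.4 times higher in WT. The depth-adjusted ratio of summed counts was 10.5, with an exact 95% interval of 6.70 to 17.3 that covers counting error only. Acsm1 entered the test through its WT libraries alone, since each KO library was under 1 CPM, and its log2 fold change was -3.35 (standard error 0.40).

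All 10 members had at least 1 CPM in at least 3 libraries and were tested. With edgeR's quasi-likelihood test and an adjusted p under 0.05, 2 were called lower in KO (Awat1 and Acsm1), where 2.09% of the 15009 tested genes were, and 1 was called higher (Scd3), where 4.38% were. The KO libraries lay below the WT libraries in 4 members (Awat1, Elovl3, Mgst1 and Acsm1), against 18.1% of all genes, and above in 1, against 13.5%. The log2 fold change was negative in 9 of 10, with a median of -0.37, and the median of all tested genes was -0.02. Since measured values of this comparison chose the members, nothing is read from these counts. Without KO3, Awat2 and Elovl3 were also called lower, but then 16.2% of all genes were. Without KO2, Awat1 was no longer called, and without any WT library, Acsm1 no longer met the count minimum.

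The KO libraries differed among themselves in a repeated order. KO3 was the highest KO library in 8 of 10 members and KO1 the lowest in 6, both at once in 6 members (60%). Of all 15009 tested genes, KO3 was the highest in 6672 and KO1 the lowest in 5065, both at once in 27.5%. In Scd1, Soat1 and Elovl3 the value of KO3 was between 1.41 and 1.99 times that of KO1. In Acsm1 it was 2.68 times, on 3 and 9 counts. The members together took 0.339%, 0.436% and 0.537% of the counts in KO1, KO2 and KO3, and 0.531% to 0.587% in the WT libraries. Scd1 alone made up 56.7% to 67.8% of that share.

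By level per kilobase in WT, Scd1 led with 757 ± 97.8 CPM per kilobase (SD, n = 3), followed by Elovl3 at 274 ± 42.6 and Awat1 at 188 ± 26.2. Then came Dgat2 at 98.5, Mgst1 at 84.7, Far2 at 47.6, Soat1 at 24.1, Awat2 at 16.9, Scd3 at 5.64 and Acsm1 at 1.37. Neighbours in this order whose libraries overlapped were Dgat2 and Mgst1, and Soat1 and Awat2. In KO the order began with Scd1 at 569 ± 175 and Elovl3 at 179 ± 31.4. Dgat2 (88.7) and Awat1 (88.3) were then level with overlapping libraries. Scd3 reached 51.4 ± 10, a level that overlapped those of Mgst1 (67.6) and Far2 (44.7). Soat1 at 19.8, Awat2 at 11.1 and Acsm1 at 0.132 came last.

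The genes whose profile over the 6 libraries was most like that of Awat1 were found by the root mean square difference of centred log2 CPM, over 15008 other genes. They were Fam131b (0.04), Gldc (0.12), 1110057P08Rik (0.12), Gm20033 (0.12) and Serpina1e (0.13). Gldc encodes the glycine decarboxylase of the glycine cleavage system. All 5 were far less abundant than Awat1, Serpina1e being the highest at 6.39 to 7.33 CPM in WT. Of the members, Elovl3 was nearest, at rank 422 (0.28), Awat2 stood at rank 2443 (0.41) and Scd1 at rank 2838 (0.42). Scd3 was the farthest, at rank 14861 (2.28). Each profile was centred over all 6 libraries, so the distance holds the KO against WT difference by which Awat1 was picked. The 5 nearest genes had log2 fold changes of -1.32 to -0.89, and these ranks are a description only.

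The rest of the sebaceous programme was read from 5 lists of 60 genes that are no members, of which 57 were tested. In edgeR's quasi-likelihood test 2 of them fell and 3 rose in KO, shares to be set beside the 2.09% and 4.38% of all genes. KO lay below WT in 19 of the 57, where 18.1% of all tested genes did, above in 6, where 13.5% did, and overlapped in 32. The median log2 fold change was -0.12, with 34 genes negative and 23 positive. The sebaceous markers were present: Krt79, a keratin of the sebaceous duct, had 1202 to 1568 CPM in WT and 1385 to 1478 CPM in KO (log2 fold change 0.01, adjusted p = 0.962). Mc5r, the melanocortin receptor of sebocytes, had 9.00 to 10.9 CPM in WT and 5.78 to 7.54 CPM in KO, without overlap (-0.56, adjusted p = 0.0919). Cidea, a lipid droplet protein, had 87.2, 88.9 and 112 CPM in WT and 62.2, 58.7 and 86.2 CPM in KO (-0.48, adjusted p = 0.136).

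**Figure D3:**
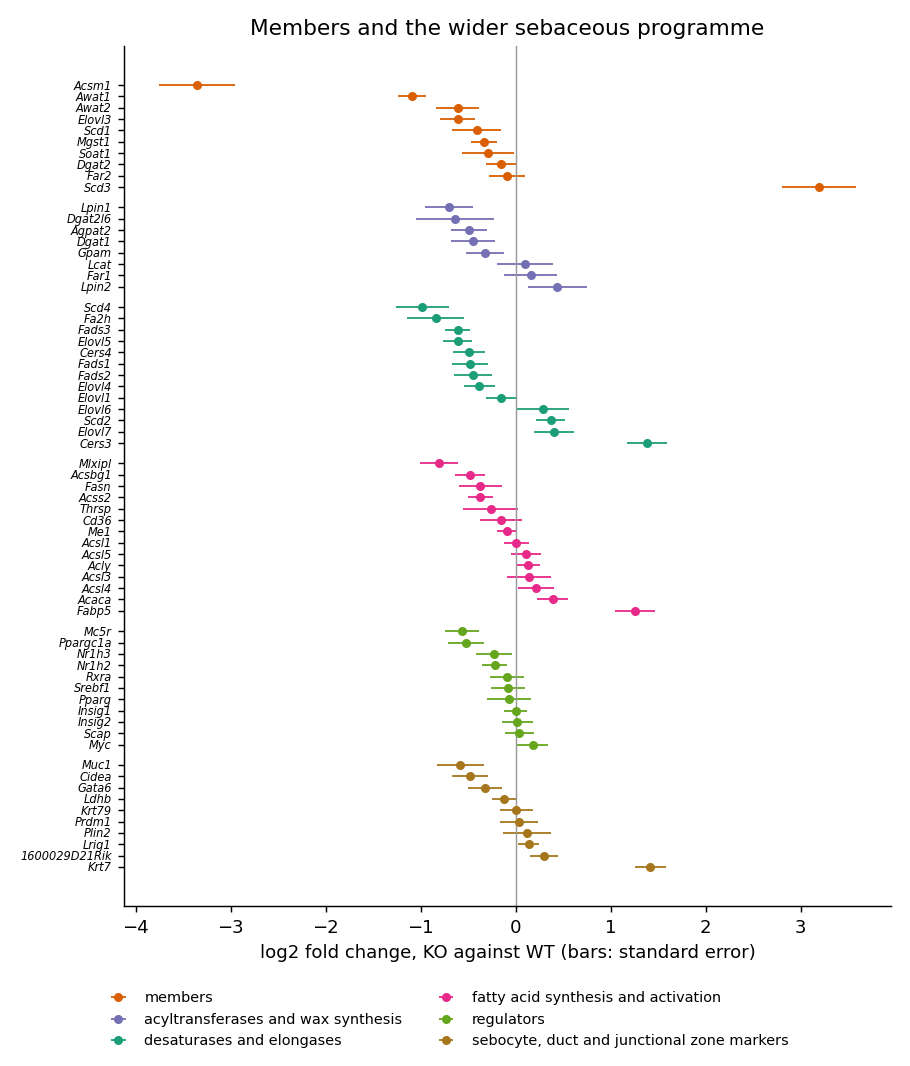
Log2 fold change of KO against WT (x axis) for the 10 members and the tested genes of the wider programme apart from 1 regulator, each gene once; bars are standard errors and colours are the lists. Scd3 and Acsm1 lie farthest out at 3.19 and -3.35, while Cers3, Fabp5 and Krt7 are the programme genes that rose.

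Fads3 and Elovl5, both in the list of 13 desaturases and elongases, were the programme genes that fell. Fads3, a desaturase of sphingoid bases, had 60.1, 60.6 and 70.1 CPM in WT and 41.8, 40.8 and 42.7 CPM in KO. Its log2 fold change was -0.61 with a standard error of 0.13, and its adjusted p in edgeR's quasi-likelihood test was 0.0311. Elovl5, an elongase of polyunsaturated fatty acids, had 67.3, 75.8 and 84.9 CPM in WT and 46.9, 46.7 and 56.1 CPM in KO (-0.61, standard error 0.15, adjusted p = 0.0482). Neither was called when any library other than KO3 was left out. In the same list Cers3, a ceramide synthase of the epidermal barrier, rose from 58.7, 63.9 and 50.5 CPM in WT to 182, 159 and 108 CPM in KO (1.38, standard error 0.21, adjusted p = 0.00745). The median of this list was -0.45. Elovl6, which elongates palmitate, overlapped between genotypes (0.29, adjusted p = 0.490). The relatives of Scd1 that are no members did not pass: Scd2 had a log2 fold change of 0.37 (adjusted p = 0.138) and Scd4 one of -0.98 (adjusted p = 0.0755). Without overlap, the KO libraries lay above WT in Scd2 and below WT in Scd4.

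None of the 8 tested genes of the acyltransferase and wax list passed the quasi-likelihood test of edgeR. The exact test called 1 and DESeq2 called 0. In the quasi-likelihood test 2 of the 8 were lower in KO at an unadjusted p under 0.05, where 2408 of all 15009 tested genes were. The median of the 8 was -0.38. Dgat2l6, the relative of Awat1 that lies between the pair, ranged from 39.1 to 96.8 CPM in WT and from 22.4 to 59.5 CPM in KO (-0.64, standard error 0.41, adjusted p = 0.325). Among 14 genes of fatty acid synthesis and activation, Fabp5, a fatty acid carrier of keratinocytes, rose from 1086, 817 and 836 CPM to 2638, 1947 and 1987 CPM (1.26, standard error 0.21, adjusted p = 0.0116), a call that was lost without WT3. The list had a median of -0.04. Fasn, the fatty acid synthase, overlapped at 522 to 701 CPM in WT and 349.9 to 629 CPM in KO (-0.37, adjusted p = 0.311).

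None of the 12 regulators passed either, with 0 by the exact test and by DESeq2, and their median was -0.09. In the quasi-likelihood test 2 of the 12 were lower in KO at an unadjusted p under 0.05, where 2408 of all 15009 tested genes were. Pparg, a nuclear receptor needed for sebocyte maturation, had 9.00, 14.7 and 15.5 CPM in WT and 10.7, 13.5 and 12.8 CPM in KO (-0.07, adjusted p = 0.849). Srebf1, a regulator of lipid synthesis genes, overlapped (-0.08, adjusted p = 0.788). Of 14 sebocyte, duct and junctional zone markers, Krt7, a keratin of simple epithelia and of gland cells, rose from 4.46, 4.72 and 4.59 CPM to 13.7, 11.8 and 11.4 CPM (1.42, standard error 0.16, adjusted p = 0.00191), and the median of the list was -0.10. The 3 tested relatives of Acsm1 and Mgst1 gave 0 calls in the quasi-likelihood test, the exact test and DESeq2, and a median of 0.03. Of these 3, 1 was lower in KO at an unadjusted p under 0.05 in the quasi-likelihood test, where 2408 of all 15009 tested genes were.

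**Figure D4:**
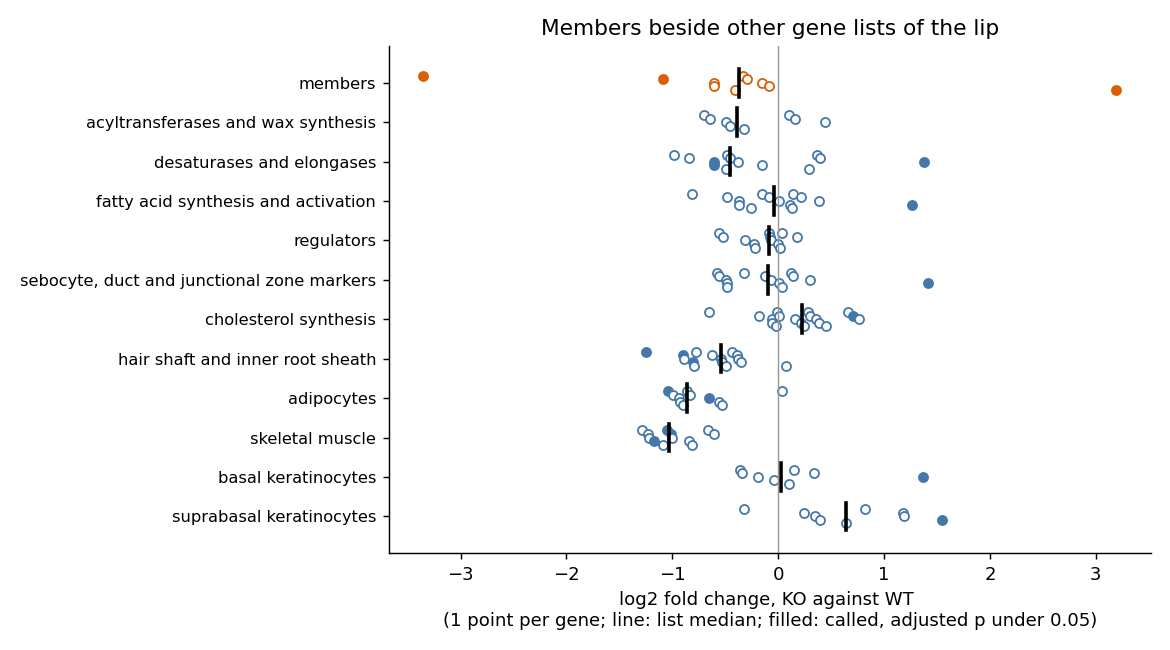
Log2 fold change of KO against WT (x axis) for the members and 11 other gene lists (rows); points are genes, filled where the adjusted p was under 0.05, and the black line is the list's median. The members' median of -0.37 lies between those of adipocyte (-0.86) and hair (-0.54) genes on one side and that of all tested genes (-0.02) on the other.

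Genes of other tissues in the lip moved with genotype as well. In the adipocyte list Fabp4 and Plin4 fell among 11 tested genes (log2 fold changes -0.65 and -1.04), and the summed level of the list was 382 to 429.5 CPM in WT and 223 to 268 CPM in KO. In the hair shaft and inner root sheath list Hoxc13, Padi3 and Shh fell among 15 (-0.90, -0.80 and -1.25), and the sum was 9647 to 12393 CPM in WT and 6172 to 8232 CPM in KO. In the skeletal muscle list Tnnt3, Tnni2 and Pvalb fell among 12, and the sum was 12176 to 17206 CPM in WT and 5006 to 10480 CPM in KO. All 12 muscle genes had a negative log2 fold change. The exact test called 5, 4 and 10 genes of the adipocyte, hair and muscle lists lower, and DESeq2 called 4, 4 and 9. Over the 15009 tested genes these tests called 1073 and 881 lower. KO lay below WT without overlap in 4, 11 and 11 genes of these lists, against 18.1% of all genes. The suprabasal keratinocyte list went the other way, with Ivl called among 9 (1.55) and a sum of 20556 to 25057 CPM in WT and 31553 to 48194 CPM in KO. The exact test and DESeq2 each called 5 of these 9 higher, where they called 1165 and 1444 of the 15009 tested genes. Of 8 basal genes 1, Dst, rose (1.37), with a list median of 0.03. In the list of salivary and eccrine type glands Aqp5 and Lpo rose among 4 tested genes (2.69 and 3.97). The other tested genes, Krt8 and Krt18, had negative log2 fold changes (-0.68 and -0.53) and were not called. Lpo was uneven in KO, at 31.0, 5.79 and 3.80 CPM (standard error 0.83). Bpifa2 was at 0 counts in 5 of 6 libraries. The part of these tissue differences in the sebaceous values was not tested. In the 18 genes of cholesterol synthesis, whose product Soat1 esterifies, the median was 0.23, and edgeR's quasi-likelihood test called 1, Sc5d, higher in KO (0.71, adjusted p = 0.0451), where the exact test called 3 and DESeq2 called 4.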

How the data were processed

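RNA was sequenced as paired-end mRNA libraries from 3 WT and 3 KO lips. Per the submitters' processing notes and methods, the authors mapped reads to GRCm38 with TopHat2 2.0.8 and Bowtie2 2.1.0. The deposited values are raw counts of uniquely mapped reads assigned to each gene by HTSeq. Its strand setting is not given in the sources used here. Library totals were 20164081 to 29491767 counts, and 3 counts, the limit a count of 0 allows, correspond to 0.0986 to 0.154 CPM. From these counts, the 15009 of 26814 genes that reached 1 CPM in 3 or more libraries were normalized by TMM and tested with edgeR 4.0.16 (glmQLFit, legacy=FALSE) in R 4.3.3, with Benjamini-Hochberg adjustment and a threshold of 0.05. Nothing says whether the mice shared litters, and the p-values take the mice as independent. They set the difference between genotypes against the spread between these mice. CPM per kilobase used the exon union of GENCODE gene models for GRCm38, which hold 24858 of the symbols. Coding sequences were aligned with Biopython 1.88 in Python 3.11.15, and figures were drawn with matplotlib 3.10.9. Protein sequences were not analysed here.

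The members and the gene lists were chosen with earlier results of these data known, so members have no p-value. Besides the members, genes were named if they passed the threshold in a list (at most 6 per list), together with Pparg, Srebf1, Mc5r, Krt79, Fasn, Cidea, Dgat2l6, Elovl6, Gtf2ird1 and the 5 genes most like Awat1. Of the regulators, 1 is not reported here singly. Scd2, Scd4, Pitx3 and Bpifa2 were named after their values were seen. Of 162 list genes 157 were found by symbol or synonym, and Dcpp1, Krt85, Pip, Prol1 and Smgc were not analysed here. Alternatives were edgeR's exact test, DESeq2 1.42.0, other scalings and filters, a replicate block and leaving out each library. The procedure was tested on simulated data.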

Additional observations from a re-analysis of the deposited data

How the results depend on the processing

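Across 8 other settings, Scd3 was the 1 member called higher each time, and the members' median log2 fold change was -0.42 to -0.31. Calls of members lower in KO numbered 2 or 3, except for 1 when at least 10 counts were required in every library, which leaves Acsm1 untested. Over all genes, calls lower and higher numbered 1073 and 1165 in the exact test and 905 and 1504 in DESeq2, and calls lower numbered 180 with DESeq2's size factors and 204 both with no filter and with at least 10 counts in every library. In the sebaceous programme, genes called lower numbered 6 in the exact test, 4 in DESeq2, 1 with DESeq2's size factors, with library size alone and with at least 10 counts, and 0 with no filter (edgeR's quasi-likelihood test). Of all tested genes, edgeR's exact test called 7.15% lower. The shares were 1.20% with DESeq2's size factors, 1.67% with library size alone, 1.34% with at least 10 counts and 0.761% with no filter. Programme genes called higher stayed at 3, where edgeR's settings called 3.24% to 7.76% of all tested genes. With the replicate block, 0 programme genes were called lower and the same members were called as without it. Whether same-numbered mice were paired is not known. The deviations of same-numbered libraries from their group means correlated at -0.192, 0.293 and 0.312, and with 3 libraries per group these values cannot decide it. The labels do not say that a number marks a shared litter or day.

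Leaving out 1 library gave 18 (without KO2) to 2395 (without KO3) genes called lower and 208 (without KO2) to 2496 (without KO3) higher. It gave 1 to 4 members lower, 1 higher each time, and a members' median of -0.60 (without KO3) to -0.18 (without KO1). In the programme it gave 0 to 12 lower, 12 without KO3 and 0 without any other library. It gave 2 to 7 programme genes higher, 7 without KO3. Of all tested genes, 16.2% were called lower and 16.9% higher without KO3. Without any other library these shares were 0.122% to 0.419% lower and 1.41% to 3.22% higher, so the counts moved with the whole table. Far2 went from -0.28 without WT1 to 0.12 without WT2, and Soat1 from -0.54 without KO3 to -0.00 without KO1. The causes were not tested. With 3 mice per genotype and Acsm1 at 3 to 9 counts in KO, depth limits the size of its difference.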
